A study of Mus musculus with 6 samples.

Results

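Expression of 9 myeloid growth genes was followed in infarct tissue of mouse hearts. They were the ligand genes Csf1, Il34 and Kitl, the receptor genes Csf1r, Csf2ra, Csf2rb, Flt3 and Kit, and the transcription factor gene Spi1. The genes were chosen by name for their role and not by a measured value, but with earlier results of these data known. They are 9 of 36047 genes with at least 1 transcript in the deposited tables, and 9 of the 20094 genes that passed the filter on low counts. The tissue came from C57BL6 mice aged 12 weeks, 48 h after ischemia/reperfusion (I/R, a temporary block of a coronary artery), from 3 samples treated with LGK974 and 3 treated with DMSO. All 6 carried the injury, and no uninjured heart and no other time point was part of the comparison. LGK974 (LGK-974) inhibits Porcupine, which fits Wnt proteins with the lipid that their secretion requires, and DMSO is the solvent used as control. The question put to these genes was whether the infarct held more or less of their RNA when Wnt secretion was blocked. The labels name no pooling and no link between same-numbered samples.

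Csf1r is the receptor that monocytes and macrophages need to survive and grow, and Csf1 and Il34 are its ligands. Csf2ra and Csf2rb are the alpha and the common beta chain of the receptor for GM-CSF, and the beta chain also serves the receptors for IL-3 and IL-5. Kit, the receptor for stem cell factor (Kitl), marks mast cells and blood progenitors, and Flt3 marks progenitors and dendritic cells. Spi1 encodes PU.1, an ETS family factor that myeloid cells depend on and that binds a core written GAGGAA in many myeloid promoters. In the infarcted heart, monocytes arrive within days and turn into macrophages, while fibroblasts and endothelial cells are known sources of Csf1 and Kitl.

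Some of these genes make more than one protein, and the stretch that sets the forms apart is shown here because the values of Kitl and Kit below are divided over it. In Kitl, exon 6 of 10 (chr10:100080857-100080940, GRCm38, plus strand) is 84 bases long, codes for 28 residues and is known to hold the site at which soluble stem cell factor is cut from the membrane. It is present in Kitl-202, which encodes 273 residues, and absent from Kitl-201, which encodes 245. In Kit, a stretch of 12 bases at the end of exon 9 of 21 (chr5:75639147-75639158, GRCm38, plus strand), next to the membrane-spanning part of the receptor, is present in Kit-201 (979 residues) and absent from Kit-204 (975 residues). The capitals mark the alternative stretch and the lower case letters the 24 bases of transcript on either side.
Kitl-202: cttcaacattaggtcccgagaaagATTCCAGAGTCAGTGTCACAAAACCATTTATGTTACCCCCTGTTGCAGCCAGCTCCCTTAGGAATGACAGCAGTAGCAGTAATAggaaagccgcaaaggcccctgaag
Kit-201: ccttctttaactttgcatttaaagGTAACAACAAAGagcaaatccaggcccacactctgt

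The libraries held 41579787 to 80398211 estimated counts, of which mitochondrial genes took 28.2 to 53.7%. Cardiomyocyte markers, the defining genes of the labelled tissue, summed to 39817 to 63055 CPM (counts scaled to library size, with TMM factors), so the heart was well represented in all 6 libraries. DMSO replicate 1 stood apart. Among 1501 olfactory, vomeronasal and bitter taste receptor genes, which the heart is not known to use, 99.3% had counts in it against 60.4 to 88.5% in the other libraries, and their median level was 33.9 counts per kb against 3.16 to 12.5. Values without it are given for the 9 genes and for the gene lists that it moved most. The level of these silent families is used below as the background over which a low gene must stand.

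With LGK-974, Spi1 and the receptor genes Csf1r, Csf2rb and Csf2ra had higher values than with DMSO, by 2.04-fold, 1.72-fold, 1.93-fold and 1.57-fold in the fit. Among the ligand genes, Csf1 lay 1.34-fold higher and Kitl and Il34 had values close to those of the DMSO samples. Kit and Flt3 overlapped between the groups. In the quasi-likelihood test of edgeR, with p-values adjusted over all genes by the Benjamini-Hochberg method, 0 of the 9 and 0 of the 20094 tested genes (0%) lay under 0.05. The smallest adjusted p-value of any gene was 0.368.
Before adjustment, edgeR's p was under 0.05 in 4 of the 9, all higher (Csf1r, Csf2ra, Csf2rb and Spi1), against 6.26% of all tested genes, and 0 were lower, against 7.18%. In 4 of the 9 every LGK-974 library lay above every DMSO library (Csf1, Csf1r, Csf2rb and Spi1), against 10.7% of all tested genes, and in 0 every one lay below, against 7.27%. DESeq2 called 1 of the 9, Spi1, where it called 0.983% of the genes it could adjust as higher. The median log2 fold change of the 9 was 0.42, beside −0.13 over all tested genes.
Without DMSO replicate 1, an alternative added after the data were seen for these counts, 5 of the 9 had every LGK-974 library above the other DMSO libraries (16.9% of tested genes), Csf2ra being added. In that fit the same 4 genes had an unadjusted p-value under 0.05 and were higher (7.12% of tested genes).

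**Figure D1:**
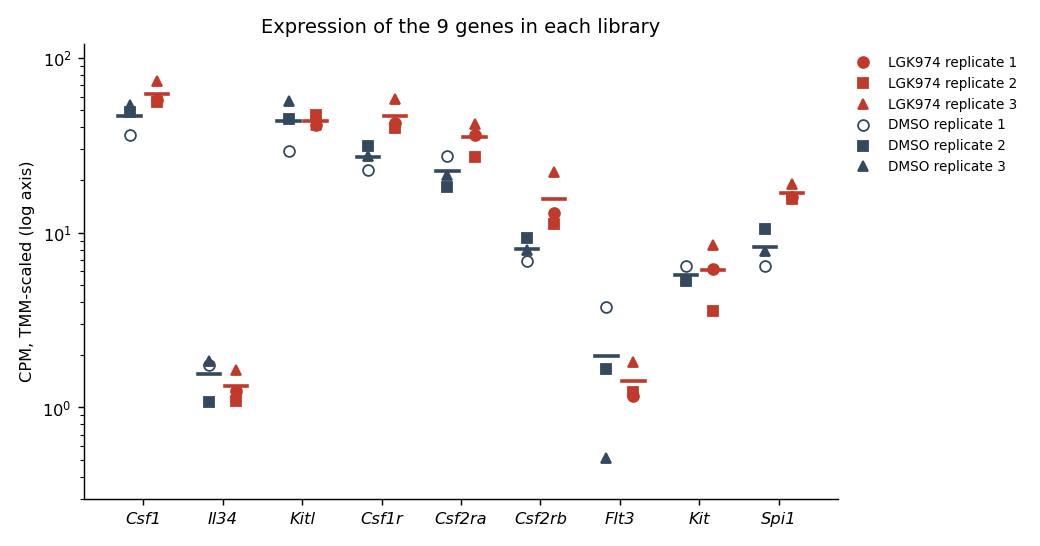
Expression of the 9 genes in each library, in CPM on a log axis. Each point is 1 library, shape gives the replicate number, horizontal bars are group means, and the open circle is DMSO replicate 1. For Csf1, Csf1r, Csf2rb and Spi1 the 3 LGK-974 points lie above the 3 DMSO points, and Flt3 spans 7.31-fold among the DMSO libraries.

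**Figure D2:**
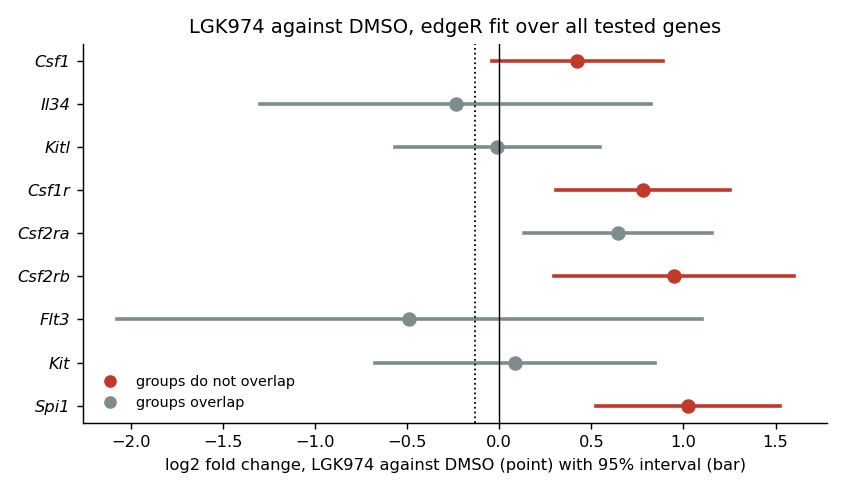
Log2 fold change of each gene, LGK-974 against DMSO, with its 95% interval from edgeR's fit. Red marks genes whose groups do not overlap, gray those that do, the solid line is 0 and the dotted line is the median of all tested genes, −0.13. The intervals of Csf1r, Csf2ra, Csf2rb and Spi1 lie above 0 before adjustment for the number of genes.

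Compared per kb of transcript, Csf1 was the most abundant of the 9 with a mean of 20.1 CPM per kb over the 6 libraries. Csf2ra followed with 14.9, Kitl with 9.76, Csf1r with 9.62, Spi1 with 6.75 and Csf2rb with 3.30 CPM per kb. At the low end stood Kit with 1.30, Il34 with 1.06 and Flt3 with 0.441 CPM per kb. Csf1 exceeded Csf2ra in 5 of 6 libraries, Csf2ra exceeded Kitl in 4, Kitl exceeded Csf1r in 4 and Kit exceeded Il34 in 4, so these neighbours were not set apart beyond their spread. Csf1r exceeded Spi1, Spi1 exceeded Csf2rb, Csf2rb exceeded Kit, and Il34 exceeded Flt3 in 6 of 6 libraries. Kitl lay above Csf1r in 3 of the DMSO libraries (means 9.79 and 7.08 CPM per kb), whereas with LGK-974 Csf1r had the higher mean (12.2 against 9.72 CPM per kb).

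The background touched the 9 genes very unequally. In DMSO replicate 1, a gene at the silent level would have collected as many counts per kb as made up 87.0% of those of Flt3, 66.0% of Il34, 59.8% of Kit, 44.1% of Csf2rb and 24.4% of Spi1. The same share was 14.3% for Csf1r, 12.9% for Kitl, 6.32% for Csf1 and 5.96% for Csf2ra. Flt3 stood only 1.15, 1.66 and 1.73 times over the silent median in DMSO replicates 1, 2 and 3, and 2.22, 3.85 and 9.59 times in LGK-974 replicates 1, 2 and 3. Its level in the DMSO libraries was therefore close to that of genes with no known use in the heart. Csf1r stood 6.98 to 92.2 times over the silent median in the DMSO libraries and 81.2 to 304 times in the LGK-974 libraries. The silent median itself ran from 3.16 to 33.9 counts per kb, so such ratios do not compare a gene's level between the groups.

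**Figure D3:**
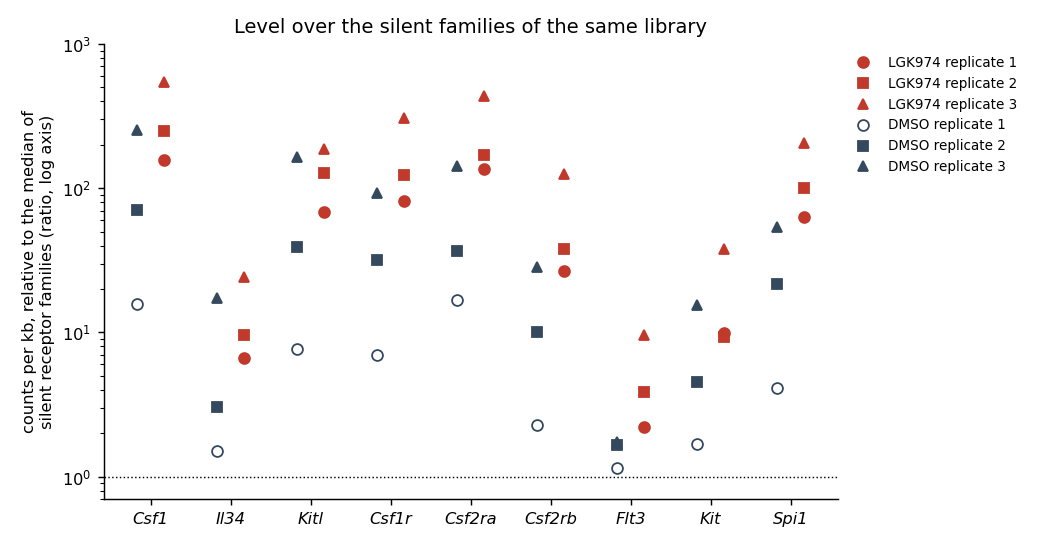
Counts per kb of each gene divided by the median counts per kb of the silent receptor families in the same library, on a log axis, with 1 point per library. The dotted line at 1 is the silent level. Flt3 lies nearest to it, at 1.15 to 1.73 in the DMSO libraries, and DMSO replicate 1 has the lowest ratio for every gene.

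Csf1 (chromosome 3, 107741048 to 107760469, minus strand, GRCm38, as all positions here) measured 57.8, 55.7 and 73.3 CPM in LGK-974 replicates 1, 2 and 3, and 36.4, 49.3 and 53.4 CPM in DMSO replicates 1, 2 and 3. The lowest LGK-974 library lay just above the highest DMSO library, and DMSO replicate 1 was the lowest of all. The means were 62.2 ± 9.60 and 46.4 ± 8.86 CPM (SD, n = 3 each). Csf1 thus had a log2 fold change of 0.42 (standard error 0.200, edgeR adjusted p = 0.370). Its 95% interval, −0.04 to 0.89, contains 0. Without DMSO replicate 1 the log2 fold change was 0.29, and without DMSO replicate 3 it was 0.64 (edgeR adjusted p = 0.179). The latter was the only library whose omission took Csf1 under 0.05 before adjustment.
Csf1 is made as a long form of 552 residues, which is released or bound to proteoglycan, and as a short form of 257 residues that stays in the membrane. Of the TPM of these forms, a level scaled to transcript length, the 2 transcripts of the long form held 73.9 ± 7.37% under LGK-974 and 72.1 ± 5.69% in the DMSO samples (SD, n = 3 each). The groups overlapped (exact two-sided permutation test, p = 0.8).

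Il34 (chromosome 8, 110741829 to 110805924, minus strand), the other ligand of Csf1r, measured 1.24, 1.08 and 1.64 CPM with LGK-974 and 1.76, 1.08 and 1.84 CPM with DMSO. Both groups had their lowest value at 1.08 CPM, and the values interleaved. The log2 fold change was −0.24 (standard error 0.457, edgeR adjusted p = 0.806), with a 95% interval from −1.30 to 0.82 that leaves room for a change of either sign. Without DMSO replicate 1 it was −0.13. Exons of Il34 share 75 bases with Gm15895 and 22 with Gm15894, both on the opposite strand, and reads from these stretches cannot be assigned if strand was not used.

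Kitl (chromosome 10, 100015630 to 100100416, plus strand) measured 41.5, 47.3 and 41.1 CPM with LGK-974 and 29.3, 44.6 and 56.7 CPM with DMSO. The LGK-974 libraries lay inside the range of the DMSO libraries, whose own spread was 1.93-fold. The log2 fold change was −0.01 (standard error 0.240, edgeR adjusted p = 0.988, 95% interval −0.57 to 0.55), and its sign was not stable across alternatives. Without DMSO replicate 1 it was −0.21.
The form with the cleavage exon shown above, Kitl-202, made up 74.3, 76.9 and 90.2% of the TPM of Kitl-202 and Kitl-201 with LGK-974 and 70.3, 77.4 and 63.0% with DMSO. As Kallisto divided the reads, Kitl-202 thus held the larger share in all 6 libraries. Only 2.439% of the 31-base words of Kitl-201 belong to it alone within the gene, against 63.05% for Kitl-202. Reads over the cleavage exon itself were not counted separately, so these shares are uncertain and were not read as proof that the cleavable form prevailed. The means, 80.5 ± 8.57% and 70.2 ± 7.22% (SD, n = 3 each), did not differ beyond the spread (exact two-sided permutation test, p = 0.3).

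Csf1r (chromosome 18, 61100598 to 61132149, plus strand) measured 42.7, 39.5 and 58.1 CPM with LGK-974 and 22.9, 31.3 and 27.5 CPM with DMSO. Every LGK-974 library lay above every DMSO library, with the lowest at 39.5 and the highest DMSO library at 31.3 CPM. The means were 46.8 ± 9.97 and 27.2 ± 4.22 CPM (SD, n = 3 each). Csf1r thus had a log2 fold change of 0.78 (standard error 0.203, 95% interval 0.31 to 1.25). It ranked 268th by p-value among the tested genes (edgeR adjusted p = 0.368, DESeq2 adjusted p = 0.0584). Without DMSO replicate 1 the log2 fold change was 0.69.
Exons of Csf1r overlap those of Hmgxb3 on the opposite strand over 873 bases, a stretch carried by Csf1r-202. The full-length Csf1r-201, which shares no such sequence with another gene, held 77.5, 57.3 and 73.7% of the counts of Csf1r with LGK-974 and 51.5, 51.5 and 57.2% with DMSO. The lowest LGK-974 share, 57.3%, lay just above the highest DMSO share, 57.2% (exact two-sided permutation test, p = 0.1, the smallest p that 3 against 3 allows, and 0.72 adjusted over 9 genes). Only 1.25% of the 31-base words of Csf1r-201 belong to it alone within the gene, so these shares are uncertain and were not read as a difference in splicing.

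Csf2rb (chromosome 15, 78325752 to 78353847, plus strand) measured 13.0, 11.3 and 22.2 CPM with LGK-974 and 6.91, 9.27 and 7.91 CPM with DMSO. The groups did not overlap, and LGK-974 replicate 3 was the highest library by a wide margin. The means were 15.5 ± 5.87 and 8.03 ± 1.18 CPM (SD, n = 3 each). On the log2 scale, Csf2rb differed by 0.95 (standard error 0.280, 95% interval 0.30 to 1.60, edgeR adjusted p = 0.368, DESeq2 adjusted p = 0.0940). Without DMSO replicate 1 it was 0.87. Without the filter on low counts edgeR gave an adjusted p = 0.0126.
Mice carry a near copy beside it, Csf2rb2, the beta chain particular to the mouse IL-3 receptor, and 28.9% of the 31-base words of Csf2rb-201 also occur in Csf2rb2. Csf2rb2 itself measured 11.4 ± 0.692 CPM with LGK-974 and 10.9 ± 2.51 CPM in the DMSO samples (SD, n = 3 each). On the log2 scale, Csf2rb2 differed by 0.07. The division of shared reads between these copies is uncertain. With the counts of both genes summed, an alternative added after the data were seen, the log2 fold change was 0.51 (standard error 0.198, edgeR adjusted p = 0.368). The microRNA gene Mir7676-2 lies within Csf2rb over 62 bases of exon on the same strand.

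Csf2ra (chromosome 19, 61223957 to 61228429, minus strand), the chain that gives the GM-CSF receptor its specificity, measured 36.0, 27.2 and 42.0 CPM with LGK-974 and 27.5, 18.3 and 21.3 CPM with DMSO. The groups overlapped only because DMSO replicate 1, at 27.5 CPM, lay above LGK-974 replicate 2, at 27.2 CPM. The means were 35.1 ± 7.44 and 22.4 ± 4.72 CPM (SD, n = 3 each). On the log2 scale, Csf2ra differed by 0.65 (standard error 0.220, 95% interval 0.14 to 1.16, edgeR adjusted p = 0.368). Before adjustment its edgeR p of 0.0193 became 0.0612 without LGK-974 replicate 1 and 0.0805 without DMSO replicate 2. It became 0.00616 without LGK-974 replicate 2 and 0.00374 without DMSO replicate 1, where the log2 fold change was 0.84 (edgeR adjusted p = 0.299).
As Kallisto divided the reads, most counts of DMSO replicate 1 lay on another kind of transcript. Protein-coding transcripts of Csf2ra measured 25.3, 21.7 and 25.8 CPM with LGK-974 and 1.78, 11.8 and 15.9 CPM with DMSO. The groups did not overlap (24.3 ± 2.23 and 9.80 ± 7.25 CPM, SD, n = 3 each; exact two-sided permutation test, p = 0.1). Retained-intron transcripts, which are annotated as not coding for protein, measured 10.5, 5.44 and 15.8 CPM with LGK-974 and 25.8, 6.52 and 5.45 CPM with DMSO. In DMSO replicate 1 they took 93.6% of the counts of Csf2ra, against 20.0 to 37.7% in the other 5 libraries, and 1 of them, Csf2ra-202, held 1022 estimated counts.
Over all nuclear genes the share on retained-intron transcripts was 6.58% in DMSO replicate 1 and 5.82 to 6.28% in the other libraries. In a fit on protein-coding transcripts only, added after the data were seen, the log2 fold change of Csf2ra was 1.28 (standard error 0.581, 95% interval −0.06 to 2.63, edgeR adjusted p = 0.334), the largest shift of any of the 9 genes in that fit.

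**Figure D4:**
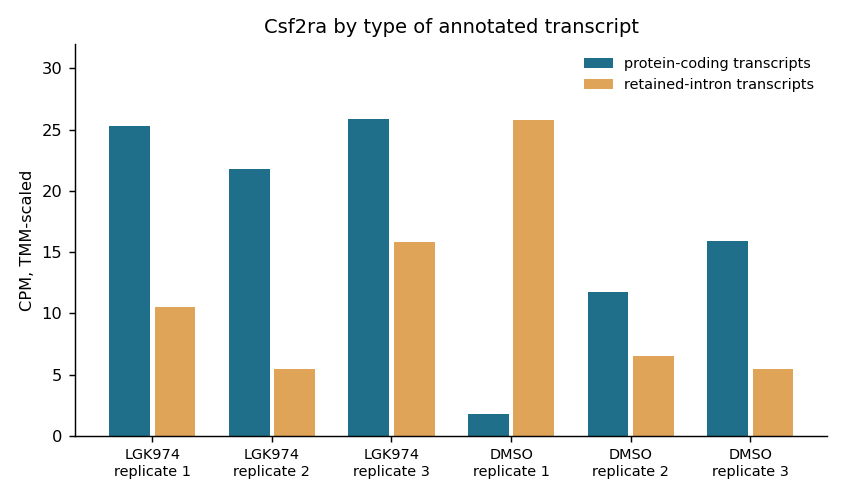
CPM of Csf2ra in each library, split by Kallisto's estimates into its protein-coding (blue) and retained-intron (orange) transcripts. Bars start at 0 and each is 1 library. In DMSO replicate 1 the protein-coding transcripts reach 1.78 CPM and the retained-intron transcripts 25.8 CPM, whereas the protein-coding bar is the taller one in the other 5 libraries.

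Kit (chromosome 5, 75574916 to 75656722, plus strand) measured 6.18, 3.55 and 8.52 CPM with LGK-974 and 6.48, 5.30 and 5.43 CPM with DMSO. The LGK-974 libraries held both the lowest and the highest value. The log2 fold change was 0.09 (standard error 0.327, edgeR adjusted p = 0.910, 95% interval −0.67 to 0.84). Without DMSO replicate 1 it was 0.20. Kit-204, which lacks the 12-base stretch shown above, made up 82.1, 100 and 0% of the TPM of Kit-204 and Kit-201 with LGK-974 and 100, 81.6 and 57.7% with DMSO. Only 1.25% of the 31-base words of Kit-204 and 0.733% of those of Kit-201 belong to that transcript alone, so shares that swing from 0 to 100% between replicates were not read as a difference in splicing.
The 9 tested of 10 mast cell markers, which include Kit, summed to 10.7, 6.42 and 9.97 CPM with LGK-974 and 17.5, 12.6 and 8.72 CPM with DMSO. Kit itself supplied 6.18, 3.55 and 8.52 CPM of these sums with LGK-974 and 6.48, 5.30 and 5.43 CPM with DMSO. Of the 9 markers, 2 were higher and 7 lower, with a median log2 fold change of −1.29, and 0 had an unadjusted edgeR p-value under 0.05. With DMSO replicate 1 left out, 6 of them passed the filter on low counts, with a median of −0.25. The defining mast cell genes were near 0, with Cpa3 at 0.188 to 2.07 CPM and Tpsab1 at 0 to 0.402 CPM. Mrgprb2, with the smallest p-value of the list, measured 0.153, 0 and 0 CPM with LGK-974 and 1.58, 0.765 and 0.123 CPM with DMSO.

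Flt3 (chromosome 5, 147330741 to 147400489, minus strand) measured 1.17, 1.23 and 1.83 CPM with LGK-974 and 3.77, 1.65 and 0.516 CPM with DMSO. DMSO replicate 1 was the highest library and DMSO replicate 3 the lowest, so the DMSO group enclosed the LGK-974 group. The log2 fold change was −0.49 (standard error 0.685, edgeR adjusted p = 0.727, 95% interval −2.08 to 1.10). It turned to 0.39 without DMSO replicate 1 and to 0.96 on counts less the silent level of each library, and neither passed the threshold (edgeR adjusted p = 0.824 and 0.595). No direction can be given for Flt3 from these libraries.
Among the 11 dendritic cell markers, which include Flt3, 4 were higher and 7 lower, with a median log2 fold change of −0.31 (6 and 5, with a median of 0.17, without DMSO replicate 1). Bst2, an interferon-induced membrane protein of plasmacytoid and other cells, had a log2 fold change of 0.98 (DESeq2 adjusted p = 0.0183). Itgax, the integrin chain CD11c, had one of 1.36 (DESeq2 adjusted p = 0.0757). Clec9a, a receptor of conventional dendritic cells, measured 4.57 to 5.36 CPM with LGK-974 and 6.97 to 7.49 CPM with DMSO, a log2 fold change of −0.55 (edgeR adjusted p = 0.368).

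Spi1 (chromosome 2, 91082390 to 91115756, plus strand) had the smallest p-value of the 9 and ranked 79th among the tested genes. It measured 15.9, 15.6 and 18.9 CPM with LGK-974 and 6.48, 10.5 and 7.81 CPM with DMSO. The groups stood well apart, with 15.6 CPM as the lowest LGK-974 value and 10.5 CPM as the highest DMSO value. The means were 16.8 ± 1.84 and 8.25 ± 2.03 CPM (SD, n = 3 each). Spi1 thus had a log2 fold change of 1.03 (standard error 0.215, 95% interval 0.53 to 1.53). Its adjusted p-value was 0.368 with edgeR and 0.0256 with DESeq2. Without DMSO replicate 1 the log2 fold change was 0.90 (edgeR adjusted p = 0.254), and without the filter on low counts edgeR gave 1.16 with an adjusted p = 0.00581. Its leading transcript, which codes for protein, carried 77.2 to 95.3% of its counts in all 6 libraries.

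Because PU.1 binds the core GAGGAA, and Spi1 and the receptor genes Csf1r, Csf2ra and Csf2rb were higher together, the promoter windows in a RefSeq table for GRCm38.p6 were searched for it. A window covers 250 bases before and 50 after a gene's start. The motif was searched as GAGGAA and, for the other strand, TTCCTC, and 28.3% of all 32851 windows held a match. The table had windows for 5 of the 9 genes: Csf1, Flt3, Kitl, Kit and Csf2ra. Those of Csf1, Flt3 and Kitl held no match, and each of the overlapping Kit windows held the same 1 match. The Csf2ra window (chr19:61228369-61228668, minus strand) held 2 adjoining matches on the gene's strand, 14 and 8 bases before the start, and is shown because its gene is the only one of the 4 with a window. The capitals mark these matches.
Csf2ra promoter: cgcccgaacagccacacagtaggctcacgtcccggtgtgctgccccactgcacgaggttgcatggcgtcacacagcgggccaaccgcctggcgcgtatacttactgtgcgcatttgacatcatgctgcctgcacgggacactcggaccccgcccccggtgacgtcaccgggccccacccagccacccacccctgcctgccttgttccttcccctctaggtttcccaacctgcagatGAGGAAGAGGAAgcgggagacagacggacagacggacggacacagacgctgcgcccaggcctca
A match describes these letters and no more, and binding of PU.1 was not measured. Il34, Csf1r, Csf2rb and Spi1 had no window.

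The balance of ligand to receptor was read as a log2 ratio of levels per kb within each library, which does not depend on library scaling. Csf1 to Csf1r was 0.95, 1.01 and 0.84 with LGK-974 and 1.18, 1.17 and 1.47 with DMSO. Csf1 RNA exceeded Csf1r RNA in all libraries, by less with LGK-974, without overlap (difference −0.34, two-sided exact permutation test, p = 0.1, adjusted over 3 ratios 0.15). Il34 to Csf1r was −3.61, −3.69 and −3.65 with LGK-974 and −2.20, −3.37 and −2.40 with DMSO. These also did not overlap (difference −0.99, exact permutation test, p = 0.1, adjusted 0.15), and 66.0% of the Il34 counts of DMSO replicate 1 were at the silent level. On counts less the silent level the difference was −0.50 and the groups overlapped (exact permutation test, p = 0.4), and without DMSO replicate 1 it was −0.77. The Csf1 to Csf1r difference was −0.38 without that library and −0.33 on TPM, where the groups overlapped (exact permutation test, p = 0.2). Kitl to Kit was 2.95 ± 0.749 and 2.91 ± 0.628 (SD, n = 3 each), with overlap (exact permutation test, p = 0.9).

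Markers of monocytes and macrophages moved in the same direction as Csf1r and Spi1. Of 17 such markers, all tested, 15 were higher and 2 lower with LGK-974, 10 higher and 0 lower at an unadjusted edgeR p-value under 0.05, and their median log2 fold change was 0.81. Their summed level was 684, 657 and 754 CPM with LGK-974 and 316, 454 and 376 CPM with DMSO, without overlap. Lyz2 (lysozyme of macrophages, which has the near copy Lyz1), Adgre1 (F4/80) and Cd68 had the smallest p-values, with log2 fold changes of 1.30, 0.88 and 1.06 and DESeq2 adjusted p-values of 2.62e-04, 0.0256 and 0.00944. The part these cells have in the higher receptor RNA was not tested, and in whole tissue more cells of a type and more RNA per cell cannot be told apart. By flow cytometry of whole hearts of other animals at this time, the paper reported fewer myeloid cells and inflammatory monocytes with LGK-974. Its difference in macrophages was not significant. How those cell counts relate to the marker RNA was not tested.
Relative to the mean of these 17 markers, the log2 level of Csf1r differed by 0.13 between treatments (exact two-sided permutation test, p = 0.5), that of Csf2rb by 0.22 (exact p = 0.4) and that of Csf2ra by 0.003 (exact p = 1). All 3 overlapped between the groups. Spi1 relative to the markers was −0.45, −0.43 and −0.39 with LGK-974 and −0.99, −0.64 and −0.75 with DMSO. It lay higher in every LGK-974 library, by 0.37 on the log2 scale (exact permutation test, p = 0.1, adjusted over 4 genes 0.40). On TPM the difference was 0.25 with overlap (exact permutation test, p = 0.3), and without DMSO replicate 1 it was 0.27.

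Other cell types of the tissue were read from their own marker lists. Neutrophil markers, of which 7 of 12 were tested, had a median log2 fold change of −0.05, with sums of 23.8 to 40.4 CPM with LGK-974 and 30.5 to 71.5 CPM with DMSO. Cxcr2 was the only one with an unadjusted edgeR p-value under 0.05, at −1.03, with DMSO replicate 1 at 50.3 CPM and the other libraries at 12.0 to 17.2 CPM, and Mmp8 and Stfa2l1 had 1.02 and −1.81. Cxcr2 had −0.28 and Mmp8 1.63 without DMSO replicate 1. The neutrophil genes Ly6g, Camp, Ngp, Retnlg and Elane had 0 to 22 counts per library. All 10 fibroblast markers were higher, 5 at an unadjusted edgeR p-value under 0.05, with a median of 0.73 and sums of 3557 to 6046 CPM against 1733 to 2563 CPM. Postn, Mfap5 and Col3a1, with the smallest p-values, had log2 fold changes of 1.56, 0.86 and 1.14.
Endothelial markers had a median of 0.02 (6 of 10 higher), with −0.37 for Vwf, 0.28 for Kdr and 0.23 for Egfl7. Smooth muscle and pericyte markers had a median of 0.10, with the smallest p-values for Acta2 (0.99), Tagln (0.87) and Abcc9 (−0.37). Cardiomyocyte markers had a median of −0.43 (9 of 10 lower), Actc1 being the exception at 0.86 and Myl3 and Myl2 measuring −0.56 and −0.51. The medians of T cell (9 tested), B cell (6 of 7) and erythroid markers (7 of 8) were −0.89, −0.10 and −0.07, and none of these genes had an unadjusted edgeR p-value under 0.05. Among those with the smallest p-values were Cd8a, Cd3e and Cd3g (−1.63, −1.71 and −1.49), Blk, Cd79b and Ms4a1 (0.62, 1.41 and −1.28) and, of the erythroid list, Slc4a1 and Hbb-bs (−1.55 and −0.41). DMSO replicate 1 stood out in the T cell genes, with Cd8a at 14.2 CPM against at most 3.41 CPM and Cd3e at 3.14 CPM against at most 0.884 CPM in the other libraries. Without this library Cd8a, Cd3e and Cd3g had log2 fold changes of −0.24, −0.49 and −0.18 and Ms4a1 one of 0.25. In the same fit, added after the data were seen, the medians were −0.12 for T cell, 0.45 for B cell, 0.17 for neutrophil, −0.11 for endothelial and −0.20 for erythroid markers. They were 0.78 for macrophage, 0.61 for fibroblast, −0.06 for smooth muscle and −0.53 for cardiomyocyte markers.

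The ligand genes outside the 9 differed widely in level. Flt3l, which encodes the ligand of Flt3, measured 5.02, 9.93 and 6.09 CPM with LGK-974 and 7.97, 6.89 and 9.24 CPM with DMSO. Its groups overlapped, with a log2 fold change of −0.20 (edgeR adjusted p = 0.740). Csf2, which encodes GM-CSF, had 3, 0 and 1 estimated counts with LGK-974 and 5, 4 and 3 with DMSO, and Csf3, Il3 and Epo had 0 to 12 in any library. None of these 4 passed the filter. Of the 12 other ligand and receptor genes that did, 6 were higher and 6 lower, 0 had an unadjusted edgeR p-value under 0.05, and the median was −0.09. Il5ra, Il3ra and Il5, with the smallest p-values, had log2 fold changes of −1.33, 0.56 and −2.07, and Il5ra stood at 15.4 CPM in DMSO replicate 1 against 1.99 to 4.24 CPM in the other libraries. The value of Il5ra was −0.20 without that library. RNA of the GM-CSF receptor chains was thus measured at 6.91 to 42.0 CPM in tissue in which its ligand's RNA was not detectable above a few counts.

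The 33 genes that carry or restrain the signal of these receptors in the cell were all tested. With LGK-974, 29 were higher and 4 lower, and the median log2 fold change was 0.34 (0.26 without DMSO replicate 1). At an unadjusted edgeR p-value under 0.05, 14 were higher and 2 lower, and 0 passed after adjustment. Plcg2, a phospholipase downstream of Csf1r, measured 18.8, 19.4 and 23.0 CPM with LGK-974 and 10.5, 12.2 and 13.1 CPM with DMSO (log2 fold change 0.77, standard error 0.164). Socs3, a feedback inhibitor of JAK and STAT signaling, had a log2 fold change of 0.94. Plcg2 and Socs3 lay higher in every LGK-974 library. The 2 lower genes were Pik3r1 and Cish, at −0.63 and −0.68, and at −0.70 and −0.90 without DMSO replicate 1. DESeq2 called 1 gene of the list, Ptpn6 (SHP-1, a phosphatase of blood cells), at 1.10 and an adjusted p of 0.0499, which is named here after its value was seen.

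Of 30 other transcription factors of myeloid cells, 27 were tested, with 17 higher and 10 lower and a median of 0.28. At an unadjusted edgeR p-value under 0.05, 9 were higher and 1 lower (Gata2, −0.56). Without DMSO replicate 1, 6 were higher and 4 lower at that threshold, and the median was 0.43. Runx1, which works with PU.1 at the Csf1r locus, measured 34.2, 27.7 and 55.3 CPM with LGK-974 and 15.4, 17.4 and 16.1 CPM with DMSO (log2 fold change 1.26, standard error 0.256, DESeq2 adjusted p = 0.00406). Ikzf1, a factor of blood cells, had a log2 fold change of 0.86. Neither overlapped between the groups.

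**Figure D5:**
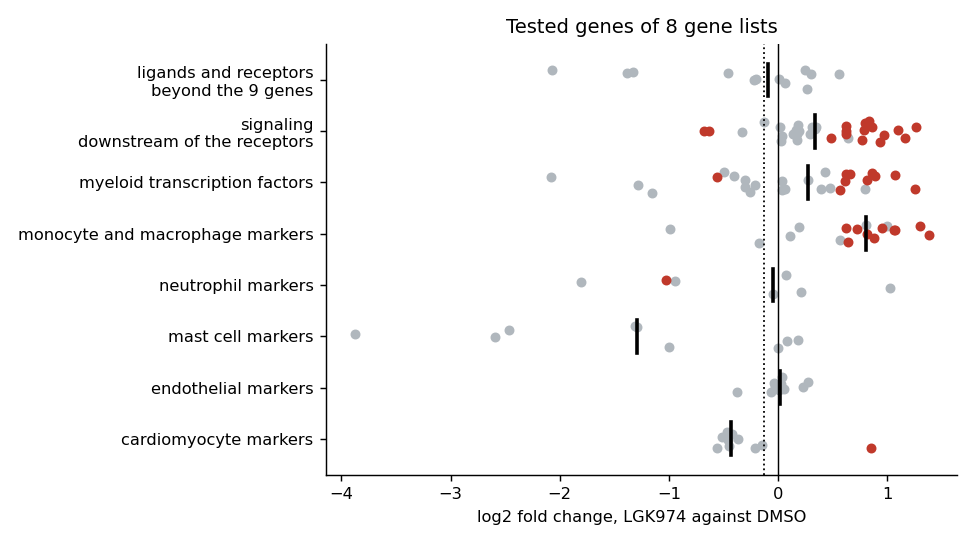
Log2 fold change, LGK-974 against DMSO, of the tested genes of 8 gene lists, 1 point per gene. Red points have an unadjusted edgeR p-value under 0.05, black bars are list medians, and the dotted line is the median of all tested genes, −0.13. Medians are 0.81 for macrophage markers, 0.34 for signaling genes, 0.28 for transcription factors and −1.29 for mast cell markers.

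The genes whose pattern over the 6 libraries was most like that of a member were sought among 10872 tested genes with a mean of at least 5 CPM, by the root mean square difference of log2 CPM centred on each gene's mean. Nearest to Csf1r were Praf2, Tnfaip2 and Aspn, with differences of 0.0466, 0.0532 and 0.0578. Nearest to Csf1 were Diaph1, Slc12a4 and Ddx39b, at 0.0288, 0.0361 and 0.0374. Nearest to Csf2rb were Il4ra, Plk1 and Itgam, at 0.0516, 0.0861 and 0.0863, with LGK-974 replicate 3 the highest library in each. Kit had no close match, its nearest genes Slc35c2, Cchcr1 and Cstf2 lying at 0.127 to 0.139. With 6 libraries, such likeness is a description of these samples.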

How the data were processed

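RNA sequencing of infarct tissue was analyzed for 3 LGK974 and 3 DMSO samples, grouped by their labels. The study's methods name depletion of ribosomal RNA, a capture kit and quantification with Kallisto on mouse transcripts (build GRCm38 in the submitters' processing notes), and Kallisto's version is not given in the sources used here. For each of 118489 transcripts the authors deposited estimated counts, which need not be whole since Kallisto divides shared reads, and TPM values, which are relative to transcript length and library and so keep no depth.

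Estimated counts were joined to GENCODE genes (98.6% of transcripts, 36047 genes), summed and rounded. Rounding and summing do not undo the division of reads between overlapping genes or near copies. A gene entered the test if 3 or more samples had 10 or more counts. The quasi-likelihood test of edgeR 4.0.16 (R 4.3.3) was used with TMM scaling and treatment as the only term, and p-values were adjusted by the Benjamini-Hochberg method at 0.05. DESeq2 1.42.0 and limma-voom (limma 3.58.1) were alternatives, as were other scalings, no filter, protein-coding genes, counts scaled from TPM, counts less the silent level, a replicate block and leaving out each library. Permutation tests were exact and two-sided (SciPy 1.17.1). Standard errors are the log2 fold change divided by the root of the F statistic.

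Depth was 41579787 to 80398211 counts, so the number of samples and the spread between them limited precision more than counting, except for Flt3, Il34 and genes with few counts. The common dispersion, edgeR's estimate of that spread over all genes, was 0.238 with all libraries and 0.0825 without DMSO replicate 1. With any other library left out it was 0.155 to 0.25. P-values set the difference between the groups against the spread between these samples.

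The 9 genes and all gene lists were chosen with earlier results of these data known. Named were the 9 genes, up to 3 genes of each list with the smallest p-values, the 3 genes nearest in pattern to Csf1r, Csf1, Csf2rb and Kit, and genes that overlap a member or are its near copy. Other genes are named as values of their list. Some genes that this rule would name are not reported here.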

Additional observations from a re-analysis of the deposited data

How the results depend on the processing

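Over 18 alternatives, Spi1 kept a positive log2 fold change (0.90 to 1.25), as did Csf1r (0.66 to 1.03), Csf2rb (0.51 to 1.24), Csf2ra (0.47 to 1.28) and Csf1 (0.29 to 0.66). The low ends for Spi1 and Csf1 came without DMSO replicate 1 and that for Csf1r without LGK-974 replicate 3. Those for Csf2ra and Csf2rb came from counts less the silent level and from the summed beta chains. High ends came from library totals without TMM, which moved the median of all genes from −0.13 to 0.08, and for Csf2ra from coding transcripts. Adjusted p-values ran from 0.00581 to 0.772 for Spi1 and from 0.0584 to 0.772 for Csf1r. In the main fit, edgeR called 0 of 20094 genes (2699 at an unadjusted p-value under 0.05). DESeq2 called 315 of the 22271 genes it could adjust. Without a filter, edgeR called 1206 of 34257 genes, and the median log2 fold change of all genes was −0.55. Without DMSO replicate 1 it called 2 of 18547, with 0 to 2 over the fits that left out 1 library. Of the 9 genes, DESeq2 called 1 (Spi1, 1.06, adjusted p = 0.0256) and edgeR without a filter 2 (Csf2rb, 1.09, adjusted p = 0.0126, and Spi1, 1.16, adjusted p = 0.00581). The cause of these differences was not tested.

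Signs turned only where values were near 0 or near the silent level, and the cause was not tested. Kitl (−0.01) turned to 0.0047 with RLE size factors, 0.16 with library totals, 0.012 with DESeq2, 0.039 with limma-voom, 0.10 without a filter, 0.051 on counts scaled from TPM and 0.039 with the replicate block, and ranged from −0.21 to 0.33 with 1 library left out. Il34 turned to 0.038 with library totals, 0.051 on counts scaled from TPM and 0.11 on counts less the silent level (−0.46 to 0.022 with 1 library left out). Flt3 turned to 0.96 on counts less the silent level (−0.81 to 0.39 with 1 left out), and Kit ranged from −0.15 to 0.42. The ratio of Kitl to Kit turned to −0.11 with TPM and −0.37 on counts less the silent level (−0.37 to 0.36 with 1 left out). Csf2ra relative to macrophage markers turned to −0.10 on counts less the silent level (−0.23 to 0.21 with 1 left out).

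Whether the replicate numbers pair the samples is not known: the labels name no link, and deviations of same-numbered libraries correlated at 0.475, −0.0482 and 0.391. Blocking on the number left 0 genes called. It gave 3312 genes with an edgeR p under 0.05 before adjustment, against 2699 without the block. With the block the log2 fold changes of Spi1 and Csf1r were 1.05 and 0.77 (edgeR adjusted p = 0.124 and 0.15).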
